A study of Mus musculus with 41 samples.

Results

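The 20 tumors described here were the extremes of an epithelial adhesion score among 29 epithelial mammary tumors, out of 41 tumors of the series. The score of a tumor was the mean log2 tumor-over-reference ratio of Cdh1, Epcam, Cldn3, Cldn4 and Cldn7, and tumors were chosen by these measured values, the 10 with the lowest score (low-score tumors) set against the 10 with the highest (high-score tumors). The other 9 epithelial tumors are called middle tumors here, and the remaining 12 tumors of the series, of spindle cell morphology, served as tumors that the choice did not use. All 41 tumors arose from mammary duct fragments of Trp53-null BALB/c donor mice placed in the cleared fat pads of young wild-type female BALB/c mice. Trp53 was therefore missing from the transplanted epithelium of every tumor, while host stroma, vessels and immune cells were wild type and stayed in the tumor pieces from which RNA was taken. Mice ate a low-fat diet (LFD) or a high-fat diet (HFD), either lifelong or with a switch in adulthood (HFD-LFD and LFD-HFD). Tumors were labelled early or late by the time at which they appeared. Lifelong HFD gave 4 of the low-score and 3 of the high-score tumors, HFD-LFD 2 and 3, lifelong LFD 2 and 2, and LFD-HFD 2 and 2. Early tumors made up 3 of the low-score and 7 of the high-score tumors. The labels give the epithelial tumors a variable morphology and do not say that each came from its own mouse. Tumors MSU_117L and MSU_117R, both low-score, share a number, as do high-score tumor MSU_11R and middle tumor MSU_11L, and low-score tumor MSU_56R and spindle cell tumor MSU_M56LA, the last pair both late HFD tumors. Whether such tumors came from 1 mouse is not given.

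Epithelial cells hold together through E-cadherin, encoded by Cdh1, and seal their borders with tight junctions built from claudins, while Epcam is a surface adhesion molecule of the same cells. Junction genes of this kind are kept on by epithelial transcription factors of the grainyhead and Ets families and by the splicing factors Esrp1 and Esrp2, and they are turned down by factors of the Snail and Zeb families in epithelial-mesenchymal transition. Low claudin and E-cadherin levels define the claudin-low class of mammary tumors. The mammary gland also holds a basal layer, with its own keratins and contractile proteins, beside the luminal cells that line the duct.

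Each value below is the log2 ratio of a tumor's signal to that of a common reference RNA pooled from 11 mouse cell lines, hybridised on the same 2-color array, so 0 means equal signal in tumor and reference and a difference of 1 means a doubling of the ratio. Levels are not compared between genes. In bulk tumor RNA, fewer cells of a type and less RNA per cell cannot be told apart. The array of high-score tumor MSU_60L had 22% of its spots marked as outliers by the scanner software, that of high-score tumor MSU_42L4B 3.50%, and those of the low-score tumors 0.48% to 1.56%. Outlier spots were left missing in the values of genes, so several genes have 8 or 9 values in the high-score tumors. The score itself kept them. Tumors MSU_60L and MSU_42L4B also had the 2 highest scores and were scanned in another session than the other tumors of both groups. Probes well above background in the tumor channel made up 64.4% to 76.8% of probes in low-score and 52.4% to 92.6% in high-score tumors. In the reference channel they made up 68.4% to 81.9% in low-score tumors. In high-score tumors they made up 47.5% (MSU_60L) to 94.5%, with 53.5% in MSU_42L4B. Ratios of MSU_60L and MSU_42L4B correlated with their own columns in the authors' matrix at only 0.46 and 0.60, so their extreme values need care. The scanner files of high-score tumor MSU_40R4A, low-score tumor MSU_57R and middle tumor MSU_65R matched each other's columns in the authors' matrix rather than their own, and all 3 are HFD tumors. They differ in onset, MSU_40R4A and MSU_65R being early and MSU_57R late, and the file of MSU_57R matched the column of MSU_40R4A. Labels of the scanner files were used, so the onset of these tumors is in doubt.

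Scores ran from -0.16 to 1.57 in the low-score tumors, with a median of 1.19, and from 1.97 to 3.01 in the high-score tumors, with a median of 2.17. These values chose the groups and are given as a description. The cut was narrow: the highest score inside the low group was 1.57 (MSU_62L) and the next tumor outside it had 1.64 (MSU_122Rb), while MSU_92R entered the high group at 1.97 and MSU_22R stayed outside at 1.96. The low end was led by MSU_117R at -0.16 and MSU_117L at 0.51. Low scores were reached in different ways. In MSU_117R, Cldn7 stood at -1.68 and Cldn4 at -0.37, and in MSU_117L the lowest of the 5 was Cdh1 at -0.95. Tumor MSU_13L had the lowest Epcam of the group, -1.62, and at the same time the highest Cldn4, 3.74, and the highest Cdh1, 1.40. Spindle cell tumors spanned a far wider range, from -2.40 to 2.84 with a median of 1.23.

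**Figure D1:**
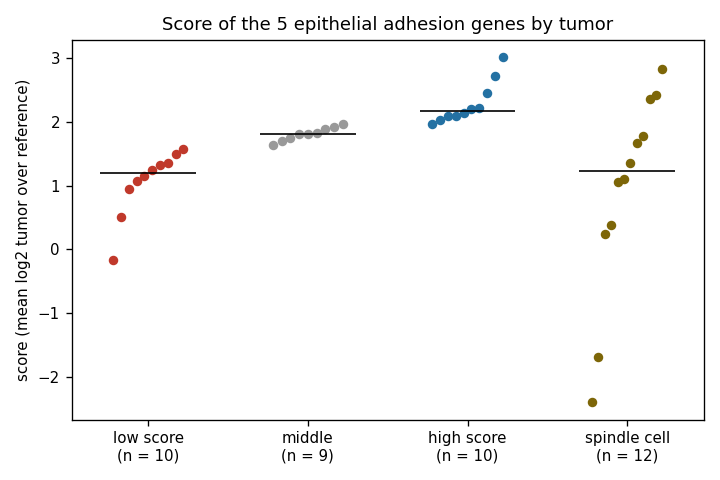
Epithelial adhesion score of each tumor (y axis, mean log2 tumor over reference of 5 genes) in low-score, middle, high-score and spindle cell tumors (points are tumors, lines are medians). The score chose the first 3 groups, low-score tumors end at 1.57 and high-score tumors begin at 1.97, and the spindle cell tumors reach down to -2.40.

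Across the 24552 genes tested besides the score genes, none passed the test between low-score and high-score tumors. With limma and Benjamini-Hochberg adjustment at 0.05, 0 genes (0%) were called higher and 0 (0%) lower in low-score tumors. At an unadjusted p under 0.05 there were 1840 genes, 7.49% of those tested, of which 918 had a higher and 922 a lower mean in low-score tumors. The counts were also 0 and 0 without MSU_60L and MSU_42L4B, without MSU_117R and MSU_117L, and on the authors' matrix without MSU_40R4A, MSU_57R and MSU_65R. For no gene were all low-score tumors on one side of all high-score tumors. The median difference over all genes was -0.02, and 54% of genes had a negative difference. The values of low-score minus high-score means below are therefore descriptions of genes that missed the threshold, and missing it does not show that the groups were alike.

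The smallest adjusted p was 0.186 (limma), shared by Slc6a8, a creatine transporter, and Trim13, a ubiquitin ligase. Slc6a8 ran from -0.30 to 0.66 (median 0.05) in low-score tumors and from -1.31 to -0.21 (median -0.71) in 9 high-score tumors, a difference of 0.84 ± 0.14 (SE). Of the low-score tumors, 8 lay above every high-score tumor. Trim13 ran from 0.21 to 1.30 (median 0.81) and from -0.45 to 0.52 (median -0.17), a difference of 0.84 ± 0.15, with 7 low-score tumors above every high-score tumor. Sema3c, a secreted semaphorin that guides migrating cells, ran from -1.68 to 1.13 (median -0.16) in low-score and from -3.13 to -1.12 (median -1.84) in 9 high-score tumors. Its difference was 1.83 ± 0.33 with an adjusted p of 0.194, and MSU_13L was the only low-score tumor not above all of the high-score tumors. With diet and onset as covariates, Sema3c (2.07) and Slc6a8 (0.75) passed at an adjusted p of 0.0453 each (limma), the only 2 genes called there. Without MSU_110R, Trim13 and Slc6a8 were called at 0.0463 each, and without MSU_13L, Sema3c at 0.0347.

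Of 30 further genes of cell junctions and polarity, none was called, 17 had a negative and 13 a positive difference, and their median was -0.19 (-0.04 with slide as a fixed block). Of all genes, 54% had a negative difference, so this count of signs was close to that of all genes. Lsr, the receptor that recruits tricellulin to the corners where several cells meet, ran from -1.198 (MSU_117R) through a median of 1.03 to 1.78 (MSU_13L) in low-score tumors, and from 1.40 through 1.77 to 2.59 in 9 high-score tumors. The difference was -0.99 ± 0.30 (adjusted p = 0.491, limma), and 8 of 10 low-score tumors lay below every high-score tumor. Ocln encodes occludin, a strand protein of tight junctions. It ran from -1.45 (MSU_117R) through -0.20 to 0.38 in low-score tumors and from -0.45 through 0.27 to 3.66 (MSU_60L) in high-score tumors, a difference of -1.05 ± 0.44. The 2 highest Ocln values were those of MSU_60L and MSU_42L4B (2.02), and 4 low-score tumors lay below all high-score tumors. Marveld2, which encodes tricellulin itself, ran from 0.01 through 0.94 to 1.27 in low-score tumors and from 0.54 through 1.52 to 1.89 in high-score tumors, a difference of -0.67 ± 0.19.

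Because these 3 tight junction genes were called in both of the tests of slopes given further on, the 250 bases before their start sites are shown here, from RefSeq on GRCm38.p6 and read 5′ to 3′ on the gene's strand, the minus strand for all 3. Capitals mark the E-box CAGGTG on either strand, the motif bound by factors of the Snail and Zeb families. The Lsr window is chr7:30973470-30973719, the Ocln window chr13:100552719-100552968 and the Marveld2 window chr13:100616972-100617221, the first start listed for each gene.
Lsr: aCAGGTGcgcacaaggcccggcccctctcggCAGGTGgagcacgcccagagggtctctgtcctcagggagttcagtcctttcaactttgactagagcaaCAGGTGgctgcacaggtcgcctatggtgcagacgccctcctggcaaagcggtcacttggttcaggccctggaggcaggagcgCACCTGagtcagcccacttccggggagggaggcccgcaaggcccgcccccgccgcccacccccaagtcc
Ocln: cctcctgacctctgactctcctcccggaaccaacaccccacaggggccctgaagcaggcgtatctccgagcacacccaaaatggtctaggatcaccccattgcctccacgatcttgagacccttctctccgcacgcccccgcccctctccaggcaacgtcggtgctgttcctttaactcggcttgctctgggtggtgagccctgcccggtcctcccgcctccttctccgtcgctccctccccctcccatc
Marveld2: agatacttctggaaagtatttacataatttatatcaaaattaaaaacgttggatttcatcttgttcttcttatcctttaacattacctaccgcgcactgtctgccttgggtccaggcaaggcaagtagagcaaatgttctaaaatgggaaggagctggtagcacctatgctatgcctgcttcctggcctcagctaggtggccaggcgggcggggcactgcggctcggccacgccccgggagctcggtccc
Ocln, other start: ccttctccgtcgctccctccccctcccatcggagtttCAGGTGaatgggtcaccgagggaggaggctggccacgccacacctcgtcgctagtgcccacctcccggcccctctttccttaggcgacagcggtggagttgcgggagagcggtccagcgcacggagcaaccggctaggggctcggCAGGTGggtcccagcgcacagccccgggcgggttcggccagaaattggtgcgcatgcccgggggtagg
The Lsr window held 4 matches, and the windows at the first starts of Ocln and Marveld2 none. The table lists another start for Ocln, whose window, chr13:100552499-100552748, held 2 matches and is shown last. The other Marveld2 window held none. Of 32851 promoter windows of the same length in the table, 17.2% held at least 1 match. The grainyhead motif AACNGGTT, searched on both strands, was in 1.79% of windows and in none of those shown. A match is a description of letters and not of binding.

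Other members of the list show its 2 sides. Marveld3, a relative of occludin, had a difference of -0.85 ± 0.29 with 5 low-score tumors below all high-score tumors, and Dsg2, a desmosomal cadherin, had -0.97 ± 0.36. In Dsg2, no low-score tumor lay outside the high-score range of 0.37 to 3.94. The largest positive differences were those of Perp and Dsp. Perp, a desmosome protein and p53 target, ran from -2.87 through -0.62 to 1.47 in low-score tumors and from -2.79 through -2.42 to -0.39 in 9 high-score tumors, a difference of 1.51 ± 0.53. Dsp, encoding the desmosome linker desmoplakin, ran from -1.37 through -0.61 to 1.31 and from -2.77 through -1.44 to 0.15, a difference of 1.19 ± 0.39. The mean of the low-score tumors was thus not lower for every junction gene, and none of these differences passed the test.

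Of 22 epithelial surface and trafficking genes, none was called, and 16 had a negative difference, against 54% of all genes. The median was -0.41, which was -0.11 with slide as a fixed block. Spint1, an inhibitor of membrane serine proteases, ran from -0.16 (MSU_117L) through 0.95 to 1.64 in low-score tumors and from 0.93 through 1.498 to 2.97 in 9 high-score tumors. Its difference was -0.88 ± 0.26, with 5 low-score tumors below all high-score tumors. St14 encodes matriptase, the protease that Spint1 inhibits. It ran from 0.76 (MSU_117R) through 1.80 to 2.27 and from 1.97 through 2.21 to 2.64, a difference of -0.58 ± 0.16, with 7 low-score tumors below all high-score tumors. Ap1m2, a sorting adaptor of epithelial cells, differed by -0.93 ± 0.32. The related inhibitor Spint2 was far lower in MSU_13L (-2.28) than in the other low-score tumors, the same tumor that had the lowest Epcam.

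Among 20 epithelial regulators, none was called, and 12 had a negative difference, against 54% of all genes. The median was -0.06, close to that of all genes. Rbm47, an RNA-binding protein, had the lowest unadjusted p of the regulators named here (0.000312). It ran from -0.42 (MSU_117L) through 0.47 to 1.55 in low-score tumors and from 0.84 through 1.46 to 2.12 in high-score tumors, with 8 low-score tumors below all high-score tumors and a difference of -0.99 ± 0.23 (adjusted p = 0.379, limma). Elf3, an epithelial Ets factor, differed by -0.66 ± 0.19, and the splicing factors Esrp1 and Esrp2 by -0.37 ± 0.15 and -0.60 ± 0.32. Grhl2, a grainyhead factor, ran from 1.73 through 2.48 to 3.52 in low-score and from 1.99 through 2.52 to 3.09 in high-score tumors. For Grhl2, 1 low-score tumor lay below and 2 above the high-score range, and the difference was 0.00 ± 0.20. Tfap2c, a factor of the luminal lineage, had a difference of 0.37 ± 0.42.

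Mean differences of the keratins had opposite signs in the luminal and basal lists. All 4 luminal keratins had a negative difference (median -0.75) and all 7 basal keratins a positive one (median 1.25), while 46.0% of all genes had a positive difference. Neither list held a called gene, and members of a list were measured in the same tumors and are not independent. Krt7 ran from -1.71 (MSU_117R) through 0.93 to 2.08 in low-score tumors and from 0.62 through 2.03 to 3.18 in high-score tumors, a difference of -1.21 ± 0.43. Krt18 differed by -0.81 ± 0.32 and Krt8 by -0.46 ± 0.33. Both Krt7 and Krt18 had 5 low-score tumors below all high-score tumors.

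On the basal side, Krt5 ran from -3.46 (MSU_13L) through -0.44 to 1.45 (MSU_66L) in low-score tumors and from -3.07 through -2.57 to -0.50 in 9 high-score tumors. The difference was 1.64 ± 0.58 (adjusted p = 0.559, limma), with 5 low-score tumors above all high-score tumors and MSU_13L below them. Krt6b ran from -3.36 through -1.02 to 5.23 (MSU_56R) in low-score tumors and from -3.51 through -2.38 to -1.62 in high-score tumors, with 7 low-score tumors above all high-score tumors and a difference of 1.80 ± 0.81. The spread of Krt6b in low-score tumors (SD 2.60) was wider than in high-score tumors (SD 0.76), and MSU_56R and MSU_117L (1.84) were its highest values. Krt14 had a mean difference of 0.82 ± 0.63, but its median was lower in low-score tumors (-0.60) than in 8 high-score tumors (-0.52). The median of the basal keratins was 0.92 without MSU_56R and 1.66 without MSU_13L, its lowest and highest over all alternatives run. Of 12 genes of squamous differentiation, 10 had a positive difference with a median of 0.43, which was 0.04 without MSU_56R. Of 9 contractile genes, 7 had a positive difference, with a median of 0.77. Of all genes, 46% had a positive difference. Cnn1, encoding calponin, ran from -3.36 (MSU_13L) through -1.21 to 0.79 and from -4.07 through -3.03 to -0.54, a difference of 1.66 ± 0.52. Myl9, a myosin light chain, ran from -4.07 (MSU_13L) through -1.83 to -1.28 in 9 low-score tumors and from -3.89 through -3.52 to -2.46 in high-score tumors, with 7 low-score tumors above all high-score tumors. Tumor MSU_13L was thus the lowest low-score tumor for Krt5, Krt14, Cnn1 and Myl9 and the highest for Lsr, Marveld3, Krt18 and Elf3. Other luminal and surface genes went the other way in it. It was also the lowest for Krt19 (-1.16), Lad1 (-1.01), Cd24a (-1.27) and Spint2, and the highest Krt7 and Krt8 were in MSU_57R and MSU_62L. Contractile proteins are made by basal mammary cells and by stromal muscle cells, and the tissue source of these values was not tested.

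**Figure D2:**
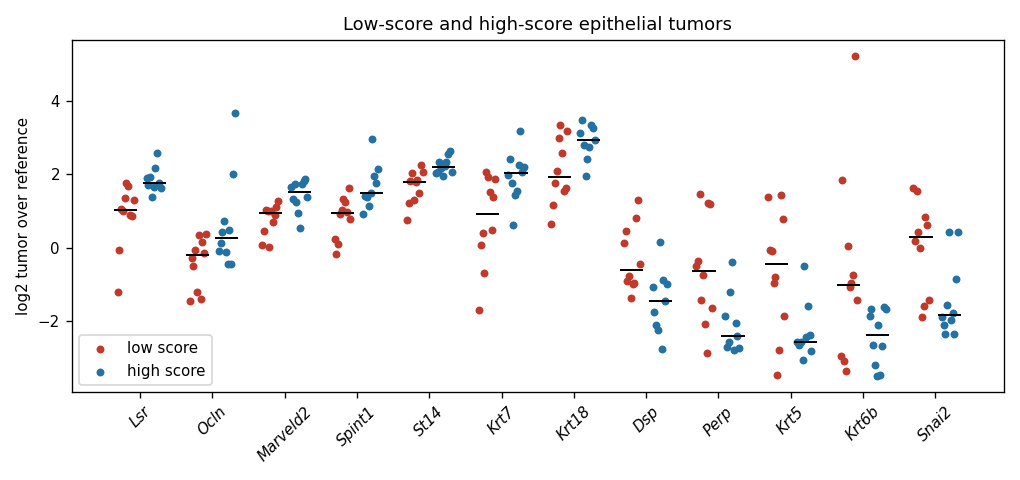
Log2 tumor-over-reference ratio (y axis) of 12 genes in the low-score and high-score tumors (points are tumors, lines are medians). Medians of Lsr, Krt7 and Krt18 are lower and those of Dsp, Perp, Krt5, Krt6b and Snai2 higher in the low-score tumors, and the groups overlap for every gene.

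The 12 transcription factors and regulators of epithelial-mesenchymal transition had a median difference of 0.18, with 8 positive and none called, and of 0.07 with slide as a fixed block. The largest was that of Snai2, which encodes Slug, a Snail-family repressor also made by basal mammary cells. Snai2 ran from -1.89 (MSU_13L) through 0.31 to 1.63 (MSU_117R) in low-score tumors and from -2.37 through -1.82 to 0.43 in high-score tumors, a difference of 1.44 ± 0.49 (adjusted p = 0.541, limma). Zeb1, a zinc-finger repressor of Cdh1, differed by 0.53 ± 0.24. In both genes 4 low-score tumors lay above all high-score tumors. Of 26 mesenchymal and matrix genes, 20 had a positive difference and none was called, with a median of 0.22 (0.05 with slide as a fixed block). Of all genes, 46% had a positive and 54% a negative difference. S100a4, a calcium-binding protein of motile cells, ran from -0.88 through 0.75 to 3.43 in low-score and from -0.91 through -0.43 to 1.43 in 9 high-score tumors, and its highest values were those of MSU_117R and MSU_117L (2.30). The mean level of the mesenchymal list was -2.64 to -0.35 in low-score and -2.27 to -1.23 in high-score tumors. Among 12 genes of TGF-beta signaling, 9 had a negative difference, with a median of -0.13 (-0.38 with slide as a fixed block). Ltbp2, a matrix protein related to the TGF-beta binding proteins, differed by -0.87 ± 0.30 and Tgfb3, a ligand, by -0.45 ± 0.19.

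All 20 interferon-response genes had a negative difference, against 54% of all genes. Their median was -0.60, against -0.02 for all genes, and none of the 20 was called. Their adjusted p values lay between 0.497 and 0.863 (limma). Ifit1, an antiviral RNA-binding protein, ran from 0.83 (MSU_13L) through 2.10 to 4.53 (MSU_117R) in low-score and from 1.197 through 3.65 to 5.76 (MSU_60L) in high-score tumors, a difference of -1.22 ± 0.52. Ifit2, of the same family, ran from 0.17 through 0.49 to 0.93 and from 0.05 through 1.42 to 2.79, a difference of -0.95 ± 0.30. For Ifit2 no low-score tumor lay outside the high-score range, and the high-score tumors were the more spread (SD 0.95 against 0.28). The list's median ranged from -1.14 with slide as a fixed block to -0.32 with diet and onset as covariates. Interferon genes respond together, so 20 members of a kind are not 20 separate results.

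Lists of markers of other cells in the tumor pieces had medians between -0.25 and 0.13. The T cell list (13 genes) had a median of -0.25, B cell (8) -0.21, macrophage (14) 0.00, neutrophil (8) 0.11, endothelial (12) 0.13, adipocyte (12) 0.06, skeletal muscle (12) 0.01 and erythrocyte (4) 0.03, and none of these genes was called. With slide as a fixed block, which leaves the 3 slides that hold both groups, the medians were further from 0 for B cell (-0.88), T cell (-0.52), endothelial (0.51) and skeletal muscle genes (-0.34). The mean T cell level was -0.78 to 1.83 in low-score and -0.71 to 1.62 in high-score tumors, and the mean macrophage level 0.08 to 1.91 and 0.10 to 1.43. Cell cycle genes (21) had a median of -0.05, hypoxia genes (12) -0.07, and the list of hormone receptors and milk proteins (13) -0.22, again with no call. The last of these had a positive median, 0.48, with slide as a fixed block.

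**Figure D3:**
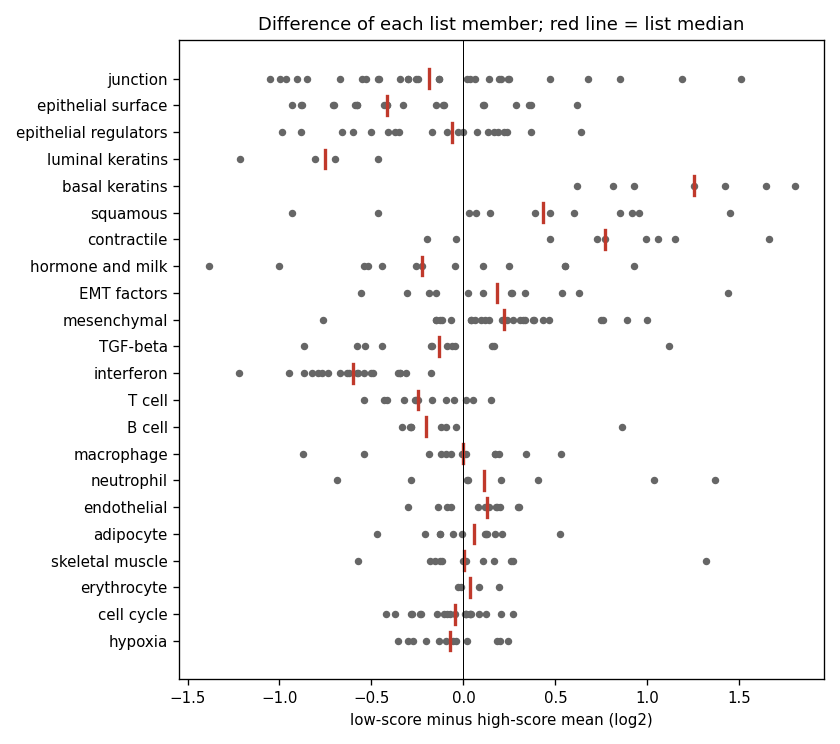
Low-score minus high-score mean (x axis, log2) of every tested member of each gene list (grey points), with the list median as a red line. The basal keratins lie wholly to the right (median 1.25) and the luminal keratins and interferon genes wholly to the left (medians -0.75 and -0.60); no point is a called gene.

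Using all 29 epithelial tumors and the score as a continuous measure gave calls where the 2 groups gave none. A slope here is the log2 change of a gene for each unit by which the score falls, so a falling gene goes down with the claudins and E-cadherin. With limma and Benjamini-Hochberg adjustment at 0.05, 198 genes rose (0.806%) and 178 fell (0.725%) as the score fell. With slide as a fixed block 11 rose and 15 fell, 16 of these among the 376, and all 376 slopes kept their sign. The counts also rested on few tumors. Without MSU_117R they were 12 and 23, without MSU_117R and MSU_117L 7 and 14, and without those 2 and MSU_60L and MSU_42L4B none was called in either direction, although 371 of the 376 slopes kept their sign. Centring arrays on their median in place of loess gave 50 rising and 20 falling genes, and a score taken from the loess values gave 401 and 933. A gene and the score were read from the same array, so anything that moves many ratios of an array could move both, which was not tested.

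Genes of junctions were among those that fell. Of the 30 junction genes, 5 fell and 0 rose, namely Lsr (slope -1.01 ± 0.14, adjusted p = 0.00077), Ocln (-1.01 ± 0.21), Marveld2 (-0.55 ± 0.11), Marveld3 (-0.72 ± 0.17) and the polarity gene Crb3 (-0.69 ± 0.16). Leaving out each of the 29 tumors in turn, Lsr was called 29 times and Ocln and Marveld2 28 times. With slide as a fixed block, 5 of the 43 genes named here with a called slope in epithelial tumors were still called, namely Lsr (-1.04, adjusted p = 0.0311, limma), Krt7, Sema3c, Spns2 and Tmc4. The slopes of Ocln (-0.51, 0.369), Marveld2 (-0.68, 0.0747) and Esrp1 (-0.15, 0.652) were not. Without MSU_117R and MSU_117L, which share a number, only 3 of the 43 genes were still called and 40 lost their call. Without MSU_117R, MSU_117L, MSU_60L and MSU_42L4B together none of the 43 was called, the slope of Lsr included (adjusted p = 0.224, limma). Of 22 surface genes 4 fell, Spint1 (-0.79 ± 0.13), St14 (-0.51 ± 0.11), Ap1m2 (-0.82 ± 0.16) and Erbb3 (-0.66 ± 0.17), a receptor of the EGF receptor family whose highest value, 3.55, was in MSU_60L. Of 20 regulators 4 fell, Rbm47 (-0.69 ± 0.13), Elf3 (-0.54 ± 0.13), Esrp1 (-0.37 ± 0.08) and Esrp2 (-0.65 ± 0.17). Krt7 (-1.21 ± 0.22) and Krt18 (-0.86 ± 0.19) fell among the 4 luminal keratins. No basal keratin, contractile, interferon or immune gene of the lists was called, S100a4 (1.12 ± 0.30) was the only mesenchymal gene to rise, and Ltbp2 (-0.76 ± 0.19) the only TGF-beta gene to fall. The median slope of the junction list was -0.20, of the surface list -0.42 and of all genes -0.01.

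Outside the lists, the largest rising slopes were those of Wif1 (2.51 ± 0.56), Bmp7 (2.13 ± 0.55), Irx4 (1.90 ± 0.42), Aldh1a1 (1.58 ± 0.38) and Lmo1 (1.496 ± 0.38). Wif1 is a secreted Wnt inhibitor, Bmp7 a bone morphogenetic protein, Irx4 a homeobox factor, Aldh1a1 a retinaldehyde dehydrogenase used as a progenitor marker, and Lmo1 a LIM-only cofactor. Wif1 ran from -3.31 through 0.21 to 3.003 in low-score and from -5.04 through -3.14 to 0.48 in 9 high-score tumors, and 5 low-score tumors lay above all high-score tumors. Irx4 ran from -2.42 (MSU_80L) through 1.36 to 4.09 (MSU_117R) and from -2.51 through -1.64 to 0.15, with 7 low-score tumors above all high-score tumors. The next 5 were Ank2, Gprasp2, Kcnmb4, Sema3c (1.42 ± 0.22) and the cyclin gene Ccnd2 (1.39 ± 0.33). The largest falling slopes were those of Clu (-1.497 ± 0.37), a secreted chaperone, Acsl4 (-1.46 ± 0.33), an acyl-CoA synthetase, the peptidoglycan recognition protein gene Pglyrp1 (-1.44 ± 0.37), the Wnt ligand gene Wnt7b (-1.30 ± 0.26) and Krt7. Clu ran from -1.01 through 0.99 to 2.78 in low-score and from 1.22 through 2.62 to 5.54 in 8 high-score tumors, with 7 low-score tumors below all high-score tumors. Spns2, Chrnb1, Mfge8, Npnt and Lsr followed, and for Npnt, a matrix ligand of integrins, 9 of 10 low-score tumors lay below every high-score tumor. The genes of this paragraph were picked by slopes over tumors that include both groups, so these counts are descriptions and no separate result.

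The 12 spindle cell tumors were not used to choose the groups, so they show whether the same genes went with the score in other tumors. A gene and the score again came from the same array, so what moves many ratios of an array could move both here too, which was not tested. In the spindle cell tumors 23 genes rose (0.0937%) and 131 fell (0.534%) as the score fell (limma, adjusted p under 0.05). Of the lists, 8 junction genes fell (among them Lsr, Ocln, Marveld2, Dsg2, F11r, Llgl2 and Cldn8), as did 10 surface genes and 6 regulators (among them Esrp1, Ehf, Grhl1, Grhl2 and Tfap2c). None of these lists held a rising gene. Basal keratins had a median slope of 0.76 in epithelial and -0.04 in spindle cell tumors, contractile genes 0.67 and -0.17, and squamous genes 0.10 and -0.04. In spindle cell tumors 5 of 7, 8 of 9 and 9 of 12 of these had a negative slope, against 50.8% of all genes. None of them was called in either set. Luminal keratins had medians of -0.77 and -0.72. Lsr ran from -3.42 (MSU_M63L) through 1.01 to 1.77 in spindle cell tumors with a slope of -1.02 ± 0.08 (adjusted p = 0.00021), and Spint1 from -2.80 (MSU_M63L) through 0.75 to 2.49 with a slope of -0.92 ± 0.07. Among the 10 largest falling slopes were also Clca2, Spint2, Fxyd3, Ano1, the virus receptor and junction gene Cxadr, and the membrane trafficking gene Mal2. Rising genes included Flnc, a filamin (0.93 ± 0.16), the membrane transporters Abcb1b (0.77 ± 0.10) and Abcb4 (0.62 ± 0.12), and the chemokine Ccl7 (0.75 ± 0.15). All of these calls were lost without MSU_M63L and MSU_M129L, the 2 tumors of lowest score, while slopes stayed close for Lsr (-0.95) and Esrp1 (-0.87) and less so for Grhl2 (-0.75). Median centring gave 13 rising and 382 falling genes. The ratios of MSU_M86R, the spindle cell tumor of highest score (2.84), correlated with its own column in the authors' matrix at only 0.36. The SD of the log2 ratios was 0.71 on its array and on that of MSU_M32L, against a median of 1.15 in spindle cell tumors.

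Called in both sets of tumors were 17 genes, 4.52% of the 376 of the epithelial tumors and 11.0% of the 154 of the spindle cell tumors. Of all genes, 0.0937% were called rising and 0.534% falling in spindle cell tumors, and 0.806% and 0.725% in epithelial tumors. The sign was the same in all 17, with 16 falling and 1 rising. The falling ones included the tight junction genes Lsr, Ocln and Marveld2, the protease and inhibitor St14 and Spint1, the adaptor Ap1m2, the splicing factor Esrp1, the signaling adaptor Grb7 (slopes -0.85 ± 0.18 and -0.83 ± 0.11), the engulfment protein Elmo3, the potassium channel Kcnk1, the channel-like Tmc4 (-0.92 ± 0.16 and -0.88 ± 0.08), Aktip and Arrdc1. The rising one was Katnal1, a katanin subunit that acts on microtubules (0.50 ± 0.13 and 0.35 ± 0.07). Several of these calls were near the threshold. Leaving out each spindle cell tumor in turn, Lsr, Spint1, St14, Esrp1 and Tmc4 were called 12 of 12 times, but Ocln (adjusted p = 0.0432, limma) and Aktip only 2 times and Katnal1 4 times, and Katnal1 was called in 7 of 29 such fits of the epithelial tumors. Leaving out MSU_56R, whose number a spindle cell tumor shares, left 15 of the 17, without Katnal1. With slide as a fixed block in the epithelial tumors, 3 genes were called in both sets, among them Lsr and Tmc4. Of the genes that fell in epithelial tumors, 134 (75.3%) had a falling slope in spindle cell tumors, where 50.8% of all genes did. Of those that rose, 114 (57.6%) had a rising slope there. Genes of a sign are not independent of each other, and no test was made of these shares.

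**Figure D4:**
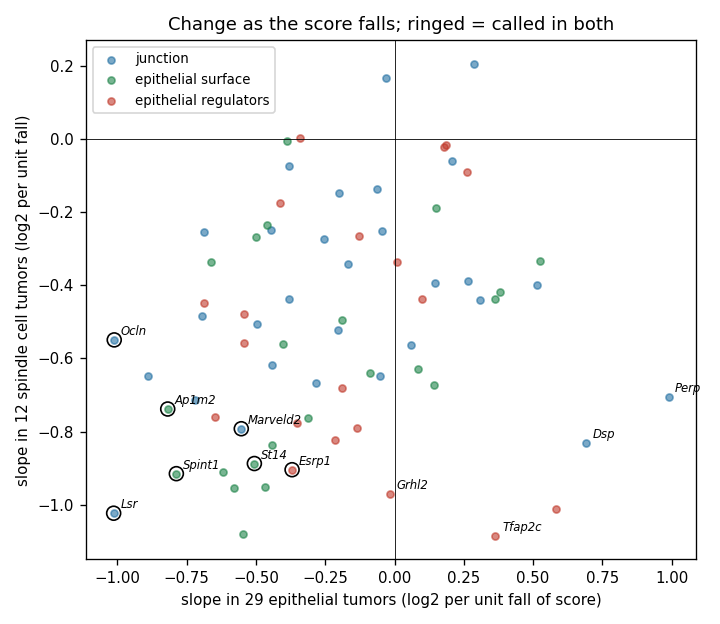
Slope of each junction, epithelial surface and epithelial regulator gene in 29 epithelial tumors (x axis) and in 12 spindle cell tumors (y axis), in log2 per unit fall of the score. Ringed genes (Lsr, Ocln, Marveld2, Spint1, St14, Ap1m2 and Esrp1) were called in both, and Grhl2, Tfap2c, Dsp and Perp lie in the lower part without lying far to the left.

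For some regulators the slope differed between spindle cell and epithelial tumors, by a test of the difference itself (limma, interaction over 41 tumors). All spindle cell arrays lay on 3 slides of their own, scanned in a session of their own and read with another version of the scanner software per the file headers, so morphology cannot be told apart from these. The slope was lower in spindle cell tumors for 85 genes (0.346%) and higher for 47 (0.191%). Of the 20 regulators, 4 had a lower slope in spindle cell tumors. Grhl2 had slopes of -0.02 ± 0.12 in epithelial and -0.97 ± 0.13 in spindle cell tumors, a difference of -0.95 ± 0.18 (adjusted p = 0.0114). The difference was -1.45 ± 0.34 for Tfap2c (0.0357) and -0.53 ± 0.13 for Esrp1 (0.0373). Wif1 (-2.71 ± 0.63), Bmp7 (-2.40 ± 0.59) and Irx4 (-2.12 ± 0.45), which rose most steeply in epithelial tumors, also had lower slopes in spindle cell tumors. The reverse held for Atp10a (1.16 ± 0.24) and Chrnb1 (0.98 ± 0.23), and for Grid1 (0.57 ± 0.10), which was well above background in only 5 of 10 low-score, 3 of 10 high-score and 4 of 12 spindle cell tumors. No junction gene differed by this test, with Lsr at -0.01 ± 0.17, and Perp and Dsp had differences of -1.69 ± 0.56 and -1.52 ± 0.46 that missed the threshold. With slide as a fixed block 8 genes were lower and 9 higher, and of the 11 genes named with a called difference Irx4 was the only one still called (adjusted p = 0.0425), Grhl2 having -0.87 ± 0.22 (0.114). Without MSU_56R the counts were 69 and 32, and of the 11 only Bmp7 lost its call. No difference was called without MSU_M63L and MSU_M129L. Median centring gave 149 lower and 8 higher, and leaving out MSU_117R and MSU_117L gave 0.126% lower and 0.477% higher. Without that pair only 4 of the 11 named genes were still called, namely Grhl2, Chrnb1, Atp10a and Grid1. Esrp1, Tfap2c, Wif1, Bmp7, Irx4, Gprasp2 and Kcnmb4 lost their call. Without MSU_42L4B and MSU_60L, 9 of the 11 were called, not Chrnb1 and Atp10a. The lowest epithelial score was -0.16, so the spindle cell slopes cover scores that no epithelial tumor had.

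**Figure D5:**
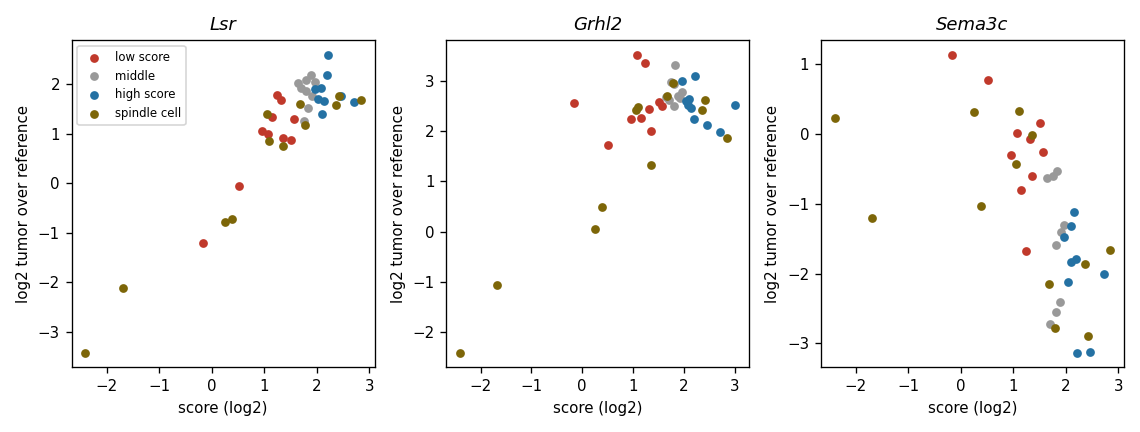
Log2 tumor-over-reference ratio of Lsr, Grhl2 and Sema3c (y axes) against the score (x axes) in all 41 tumors, colored by group. Lsr goes down with the score in epithelial and spindle cell tumors, Grhl2 goes down in the spindle cell tumors of lowest score, and Sema3c is higher in the low-score tumors.

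The 9 middle tumors, with scores from 1.64 to 1.96, gave no calls (0% rising and 0% falling, limma), with 655 rising and 329 falling genes at an unadjusted p under 0.05. Their narrow range of scores limits what a slope can show there.

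Neither diet nor onset passed a test against the score. The 14 early tumors had a mean score of 1.82 ± 0.83 (SD) and the 15 late tumors 1.61 ± 0.40, a difference of 0.21 (two-sided permutation test, p = 0.397, 0.659 after Benjamini-Hochberg adjustment over 3 labels). Without MSU_60L and MSU_42L4B the difference was 0.035 (permutation p = 0.884). With the onset labels of the authors' matrix in place of those of the scanner files it was 0.12 (permutation p = 0.634). The split given below uses the labels of the scanner files. Early tumors held both ends of the scale, MSU_117R and MSU_117L at the bottom and MSU_60L and MSU_42L4B at the top. The split of 3 early and 7 late low-score tumors against 7 and 3 high-score tumors gave p = 0.179 by Fisher's exact test (adjusted 0.537). HFD before adulthood went with a difference of -0.04 (permutation p = 0.879) and HFD in adulthood with 0.19 (permutation p = 0.440). Low-score and high-score tumors shared a slide on only 3 of the 8 slides of the epithelial tumors, and within these 3, with slide as a block, no gene was called.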

How the data were processed

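RNA of 41 tumors was hybridised with Universal Mouse Reference RNA on 2-color Agilent arrays. The authors deposited scanner output with the intensity of each spot in both channels, and a normalized, filtered matrix of log2 ratios. Per the labels, tumor RNA carried Cy5 and the reference Cy3, while the methods name the opposite dyes. The direction used is tumor over reference by the labels, and 4 Y-linked genes, foreign to female tumors, were dimmer in the red channel on all 41 arrays. The score used the processed signals of the scanner software, with outlier spots kept. Taken from the loess values, which leave outlier spots missing, the score of MSU_60L was 3.75 in place of 3.01.

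limma 3.58.1 in R 4.3.3 applied normexp (offset 50) and loess, with control and outlier spots at weight 0. Outlier spots, 1.76% of gene values in the 20 tumors, were left missing in each fit. Kept were the 32125 of 39429 probes whose red and green signals both exceeded 10 on 80% of arrays, and each gene took its brightest probe. Differences and slopes were tested with lmFit and eBayes and adjusted over all genes by the Benjamini-Hochberg method, and the scripts were tested on simulated data. Of the 24552 names, 18977 were found in the gene table of GRCm38.p6.

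The members and lists were chosen with earlier results of these data known. The rule for named genes took up to 10 called genes in each direction between low-score and high-score tumors and named none. List members were named by the largest difference within their list, and the other genes, among them the 10 largest called slopes in each direction, were chosen after their values were seen. The slope over 29 tumors was set beforehand as another form of the comparison of 2 groups, and its own alternatives, the test of the difference of slopes and the leaving out of MSU_117R and MSU_117L, of MSU_M63L and MSU_M129L or of MSU_56R were added after seeing the data. Some genes are not reported here. The alternatives changed the normalization, values, filter, probes, slide, covariates, score, threshold and tumors. Where nothing says that tumors came from separate mice, p values measure the spread between these samples. The number of arrays limits the precision.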

Additional observations from a re-analysis of the deposited data

Results flagged for a closer look

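Of 186 tests for a value far from the rest of its group, 18 flagged a tumor, and chance flags about 1 in 20 groups. Tumor MSU_60L, whose array had 22% outlier spots, was flagged within the high-score tumors for that share and for Erbb3 (3.55), Chrnb1 (3.36), Npnt (2.30), Atp10a (3.48) and Pcdh19 (-3.31). The other high-score tumors flagged were MSU_31R for Cnn1 (-0.54) and Wif1 (0.48), MSU_110R for Bmp7 (1.73), MSU_108R for Ccnd2 (-0.65) and Clu (5.54), and MSU_109L for Grhl1 (1.06). Among low-score tumors, MSU_13L was flagged for Spint2 (-2.28), MSU_80L for Mfge8 (4.86), MSU_66L for Pcdh19 (1.34), MSU_62L for Nhlh1 (3.03), MSU_117L for 64.4% of probes well above background and MSU_90R for 1.56% outlier spots.

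The slope on the falling score differed between spindle cell and epithelial tumors, by the test of the difference itself (limma, adjusted p under 0.05), for 11 of the genes named. The spindle cell minus epithelial slope was -0.53 for Esrp1, -0.95 for Grhl2, -1.45 for Tfap2c, -2.71 for Wif1, -2.40 for Bmp7, -2.12 for Irx4, -1.65 for Gprasp2 and -1.71 for Kcnmb4. It was 0.98 for Chrnb1, 1.16 for Atp10a and 0.57 for Grid1, whose probe was not well above background in most tumors. Of the 11, 4 were still called without MSU_117R and MSU_117L, and 0 without MSU_M63L and MSU_M129L.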

How the results depend on the processing

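Between low-score and high-score tumors no gene was called under most alternatives. The exceptions were slide taken as a fixed block, with 1 lower (Speer2), diet and onset as covariates, with 2 higher (Sema3c and Slc6a8), and leaving out 1 tumor, which gave 0 to 2 higher (2 without MSU_110R, 1 without MSU_13L) and 0 to 1 lower (Ppp1r14d without MSU_13L, Prkca without MSU_80L). The slope over 29 tumors, 198 rising and 178 falling genes (0.806% and 0.725% of those tested), moved to 1.47% and 1.15% with processed signals, 0.204% and 0.0815% with median centring, 1.63% and 3.8% with the score from loess values, 0.0448% and 0.0611% with a block for each slide, 0.338% and 0.265% with diet and onset, 0.0285% and 0.057% without MSU_117R and MSU_117L, and 0 and 0 without these and MSU_42L4B and MSU_60L, while the authors' matrix gave 0.328% falling. Leaving out 1 tumor gave 0.0489% to 1.16% rising and 0.0937% to 1.14% falling, lowest in both without MSU_117R. The falling share was 0.448% without MSU_117L, 0.399% without MSU_27L4A, 0.428% without MSU_60L, 0.468% without MSU_82L, 0.354% without MSU_90R and 1.14% without MSU_108R or MSU_13L, and the rising share 0.468%, 0.513% and 0.525% without MSU_27L4A, MSU_82L and MSU_90R. In spindle cell tumors, 0.0937% rising and 0.534% falling became 0.224% and 0.929% with processed signals, 0.053% and 1.56% with median centring, 0.477% and 0.827% without MSU_M32L, MSU_M86R and MSU_M76R, 0.411% and 1.09% at an adjusted p under 0.10, and 0 and 0 without MSU_M63L and MSU_M129L. Leaving out 1 of them gave 0.0367% (MSU_M54R or MSU_M56LA) to 0.159% (MSU_M86R) rising and 0.143% (MSU_M63L) to 0.603% falling, with 0.265% falling without MSU_M129L, 0.314% without MSU_M54R and 0.322% without MSU_M56LA, and rising shares of 0.0407% to 0.0611% without MSU_M84R, MSU_M63L, MSU_M128L, MSU_M129L, MSU_M18L or MSU_M32L. The 0.346% lower and 0.191% higher slopes of the test of the difference became 0.607% and 0.0326% with median centring, 0.0326% and 0.0367% with a block for each slide, 0.574% and 0.126% without MSU_42L4B and MSU_60L, 0.126% and 0.477% without MSU_117R and MSU_117L, and 0 and 0 without MSU_M63L and MSU_M129L. The difference in score by HFD before adulthood, -0.038, reversed to 0.037 (permutation p = 0.894) with the score from loess values. The cause of these shifts was not tested. No paired analysis was possible because low-score and high-score tumors share no label number, and epithelial and spindle cell tumors share only 1, that of MSU_56R and MSU_M56LA.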
